A study of Mus musculus with 4 samples.

Results

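Circulating-type natural killer (NK) cells were 71 of the 36685 cells retained from 4 single-cell libraries of mouse salivary gland stroma. A cell was a member if it had at least 2 unique molecular identifiers (UMIs, one per captured RNA molecule) in the sum of the NK receptors Ncr1, Klrb1c and Klre1, none of Cd3e, Cd3d and Trac, and at most 1 of the endothelial genes Pecam1 and Cdh5. It also needed at least 1 UMI in the sum of S1pr5, Klrg1 and Itgam, genes of circulating NK cells, and none of Itgae, Itga1 and Gzmc, genes of tissue-resident innate lymphocytes. The members were thus chosen by their own UMI counts of these genes, which are given as a description only. Deligated library 1 held 13 members, deligated library 2 held 26, homeostatic library 1 held 15 and homeostatic library 2 held 17.

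All 4 libraries came from female C57BL6/J mice and from submandibular gland that was depleted of EpCAM-positive epithelial cells and Ter119-positive red blood cells by 2 rounds of magnetic beads and then of dead cells. The protocols also name the sublingual glands as harvested. The 2 deligated libraries came from mice of 14 weeks whose main ducts carried a metal clip for 14 days and were free of it for the 5 days before harvest, and the 2 homeostatic libraries from mice of 12 weeks without surgery. The number of mice behind each library is not given in the sources used here, so p-values measure the spread between libraries, which may be technical.

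NK cells are innate lymphocytes that kill target cells with perforin and granzymes and that secrete interferon gamma and chemokines. Circulating NK cells depend on the transcription factor Eomes and leave tissue toward the sphingosine-1-phosphate of blood and lymph through S1pr5 and S1pr1. The mouse salivary gland is known for a large resident population that carries the integrins encoded by Itga1 and Itgae and shares features with type 1 innate lymphoid cells.

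The libraries held 4725, 8713, 12854 and 13266 barcodes in the order deligated 1, deligated 2, homeostatic 1, homeostatic 2, which is kept below wherever 4 values follow each other. Retained cells had at least 300 genes and at most 10% mitochondrial UMIs, and their median depth was 6139, 5341, 3128 and 2975 UMIs. Any pair of libraries shared 14 to 54 barcodes. The file headers give Cell Ranger 6.0.1 for both deligated libraries and 7.0.0 for both homeostatic ones, so surgery, age and processing version cannot be told apart.

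The members were well-covered cells with few UMIs of the genes that admitted them. Their depth ran from 2605 to 20101 UMIs with a median of 5674, and their summed NK receptor UMIs ran from 3 to 27 with a median of 11, so no member sat at the NK limit of 2. At the limit of 1 UMI for S1pr5, Klrg1 and Itgam sat 58 of the 71, and the highest sum was 4. Just outside the gate were 76, 105, 144 and 122 NK-gated cells with none of those 3 genes and none of the resident genes, and 9, 24, 10 and 6 cells with 1 UMI of a resident gene. A further 5, 4, 2 and 3 cells were out by 1 UMI of a T cell receptor gene, and 3, 1, 1 and 0 by a second endothelial UMI.

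Itgam, an integrin subunit shared with myeloid cells, was the gene that admitted most members. It alone admitted 33 (6, 13, 8 and 6 by library), Klrg1, an inhibitory receptor of mature NK cells, alone admitted 23 (3, 12, 2 and 6), and S1pr5 alone admitted 12 (2, 1, 4 and 5). The remaining 3 had S1pr5 with Itgam or with Klrg1. Klrg1 supplied more members of deligated library 2 than of any other library.

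Among all 4272 NK-gated cells, Itgam did not go with the absence of the resident genes, while S1pr5 and Klrg1 leaned toward it. An Itgam UMI was present in 17.4% of the 3754 cells with Itgae, Itga1 or Gzmc (exact 95% binomial interval 16.2% to 18.7%) and in 6.56% of the 518 without them (4.59% to 9.05%). S1pr5 was present in 0.986% of the first set (0.695% to 1.36%) and 2.90% of the second (1.63% to 4.73%), and Klrg1 in 2.74% (2.24% to 3.32%) and 4.83% (3.15% to 7.04%). Median depth was close in both sets, at 5872 and 5519 UMIs. The Itgam order held in each library, from 18.2% against 7.87% in deligated 1 to 13.4% against 4.32% in homeostatic 2. The order of S1pr5 was the other way in deligated library 2 (1.02% against 0.763%) and that of Klrg1 in homeostatic library 1 (2.39% against 1.89%). Endothelial-gated cells should lack these genes. There Itgam was seen in 1.01% to 3.30% of cells, Klrg1 in 0.14% to 0.51% and S1pr5 in 0.04% to 0.16%. The share of all 3 genes in both NK sets was above that level. In deligated library 2 the S1pr5 share without resident genes rests on 1 cell of 131 (0.0193% to 4.18%). Intervals cover counting error only, and these 3 genes and the resident genes are part of the gate, so no test was made.

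The members were a small corner of the NK-gated cells: 1.66% of them, against 2994 resident-type cells (70.1%, with a resident gene and none of S1pr5, Klrg1 and Itgam), 760 with both gene sets (17.8%) and 447 with neither (10.5%).

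**Figure D1:**
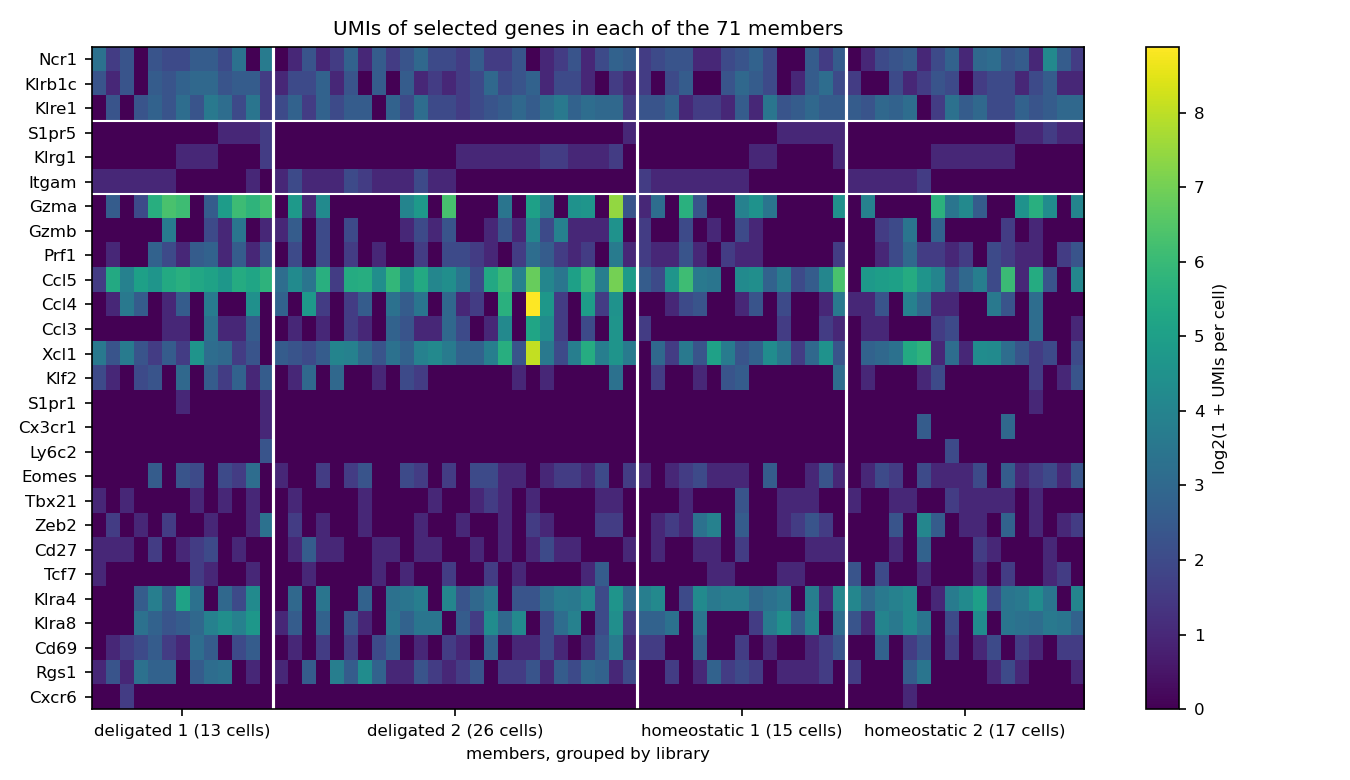
UMIs of selected genes (rows, colour is log2 of 1 plus the UMIs of the cell) in each of the 71 members (columns, grouped by library). The 6 rows at the top are genes of the gate; Ccl5 and Xcl1 are seen in nearly all columns, S1pr1, Cx3cr1 and Ly6c2 in 3, 3 and 2, and 1 column of deligated library 2 stands out for Ccl4 and Xcl1.

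The members carried genes of NK cells and few of the defining genes of circulating ones. Ncr1, the activating receptor NKp46, had a UMI in 64 of 71 members, Klrb1c in 60 and Klre1 in 67, by the choice of the gate. Of genes that the gate did not use, the Ly49 receptor genes Klra4 and Klra8 were seen in 55 and 53 members, perforin (Prf1) in 49, Eomes in 48, granzyme A (Gzma) in 40, the NK maturation receptor Cd27 in 35 and the late-maturation factor Zeb2 in 35. Klf2, a factor that drives S1pr1, was seen in 30. The egress receptor S1pr1 was seen in 3, the fractalkine receptor Cx3cr1 in 3, Ly6c2 in 2 and the protease gene Cma1 in 3. Cd69, Rgs1 and the chemokine gene Xcl1, often tied to tissue retention or recent stimulation, had a UMI in 45, 50 and 67 members. Cxcr6, a chemokine receptor of resident lymphocytes, was seen in 2. By library the members' shares were 53.3% to 76.9% for Cd69, 41.2% to 88.5% for Rgs1 and 88.2% to 100% for Xcl1. In endothelial-gated cells, a measure of free RNA for lymphocyte genes, they were 4.96% to 12.2%, 5.94% to 20.3% and 7.15% to 21.7%, each highest in deligated library 2. There Klra4, Klra8, Prf1, Eomes and Cd27 were at 2.33% to 11.5%, Zeb2 at 5.00% to 9.34% and Cxcr6 at 3.46% to 7.85%, so 2 members with Cxcr6 are no more than background. Median depth was 4782 to 6450 UMIs in members and 3732 to 6240.5 in endothelial-gated cells. Endothelial cells express Klf2 and S1pr1 themselves and give no background for them. The name therefore stands below for the gate, not for a proven blood origin.

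Members admitted by Itgam alone were compared with the 38 admitted by S1pr5 or Klrg1 as a description, without a test. Gzma was seen in 16 of 33 against 24 of 38, Eomes in 19 against 29 and the receptor gene Cd160 in 10 against 23. Both members with Cxcr6 and all 4 with the interleukin-7 receptor gene Il7r were admitted by Itgam alone. Klf2, with 16 of 33 against 14 of 38, Cd27, with 18 against 17, and Spn, with 12 against 9, went the other way.

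A Klrg1 UMI was present in 40.0% of the members with Gzma and 29.0% of those without. Cd27 is lost as circulating NK cells mature and Klrg1 is gained. A Klrg1 UMI was present in 34.3% of members with Cd27 and 36.1% of those without. Klrg1 is a gene of the gate, and most members without it entered through Itgam or S1pr5. These shares pool the cells of all libraries and are a description only, without a test.

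RNA of other cell types stood out in 4 members. Each held at least 100 UMIs of another type's marker list: 586 of the fibroblast list in 1 cell of deligated library 1, 209 of the erythroid list in 1 cell of deligated library 2, and macrophage and dendritic lists, up to 153 and 360, in 2 cells of homeostatic library 2. Summed over members, the fibroblast list reached 5811 CPM (counts per 1000000 UMIs summed over the members of a library) in deligated library 1 against 134, 12.1 and 20.1 in the others. The dendritic list reached 5174 in homeostatic library 2 against 29.4, 6.69 and 24.1. The B cell list summed to 235, 187, 133 and 141 CPM, from Ighm, Ighd and Ebf1, the 3 of 10 markers detected; the defining markers Cd79a, Cd79b and Ms4a1 were at 0 in all members, and so were all 8 neutrophil and mast cell markers, Cd8a, Cd5 and Cd6. The summed T cell list, 9 of 12 markers detected, lay between 447 and 910 CPM. The epithelial list, 14 of 20 detected, came to 363, 13.4, 953 and 1409.

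Against resident-type cells of the same library, the members had more Gzma, Klf2 and Eomes and less Gzmb, Cxcr6 and Cd7. Both classes were cut from the same cells by their UMIs, so these contrasts are described by library and not tested. The values in the next paragraphs are CPM of the class in that library, and ratios are means over the 4 libraries of log2 of the values with 20 added to each. Of 3278 genes with at least 50 CPM in either class that the gate did not use, 11 were at least 2-fold higher in members in all 4 libraries and 13 at least 2-fold lower. By any amount, 344 were higher and 390 lower in all 4 libraries, and the median ratio was -0.03.

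Granzyme A, which triggers a caspase-independent death of target cells, stood at 4204, 2958, 1557 and 2013 in members and at 641, 558, 427 and 384 in resident-type cells, a log2 ratio of 2.30. The lowest member value was above the highest resident one. A Gzma UMI was present in 76.9%, 50.0%, 53.3% and 52.9% of members, in 11.4% to 13.1% of resident-type cells and in 0.87% to 4.52% of endothelial-gated cells. With every cell thinned to 1000 UMIs the shares were 69.2%, 38.5%, 53.3% and 52.9% of members and 7.56% to 8.79% of resident-type cells. Granzyme B went the other way: 265, 569, 121 and 242 in members against 1733, 2463, 1755 and 1801 in resident-type cells, a log2 ratio of -2.79. Perforin, which lets granzymes into the target, stood at 323, 355, 181 and 312 against 171, 161, 159 and 140, a log2 ratio of 0.78. Of 15 killing genes at this level, 4 were higher and 4 lower in all libraries.

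Klf2 stood at 363, 214, 241 and 121 against 89, 67, 28.9 and 19.9, a log2 ratio of 1.87. The chemokine receptor gene Ccr2 had a log2 ratio of 1.20, the integrin gene Itga4 1.22, and Cxcr3 0.71. Of the 14 egress and homing genes at this level, 8 were higher in all libraries and 1 lower, with a median of 0.35. S1pr1 lay at 19.6, 0, 0 and 10.1 in members, too low to compare.

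Eomes stood at 245, 234, 253 and 312 in members against 99.6, 92.1, 107 and 89.1, a log2 ratio of 1.26. Tcf7, a factor of early NK cells, had a ratio of 1.30 and Irf8 0.97, while Tbx21, which encodes T-bet, had -0.15 and changed sides between libraries. Zeb2 had a ratio of 1.29, with values of 157, 93.7, 495 and 372 in members against 53.6, 68.8, 118 and 106. Of 18 NK transcription factor genes, 6 were higher in all libraries and 2 lower, with a median of 0.20.

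Receptors for interleukin-18, a cytokine that primes NK cells, were among the genes furthest apart. Il18r1 stood at 137, 107, 193 and 101 against 11.1 to 30.9 (ratio 1.88), and its partner Il18rap at 186, 60.2, 145 and 131 against 13.5 to 26.4 (1.82). The galectin gene Lgals1 led the genes named by size, at 2019, 1272, 966 and 986 against 215 to 238 (2.35). The signalling adaptor gene Sh2d1a (1.35), the annexin gene Anxa1 (1.44), Emb (1.71) and Gm2682 (1.23) were also among the higher genes named by size. Of 22 NK receptor genes, 8 were higher in all libraries and 2 lower. Klrk1, which encodes NKG2D, had a ratio of 0.92, Klra4 0.92 and Klra8 0.71.

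Of 18 residency genes outside the gate, 5 were lower in all libraries, 1 was higher (Cd9) and the median was -0.28. Cxcr6 stood at 19.6, 0, 0 and 10.1 in members against 183, 222, 125 and 155 (ratio -2.84). Rgs1, a brake on chemokine receptor signalling, stood at 490, 656, 253 and 232 against 1966, 1831, 505 and 562 (-1.39). Tnfsf10, the death ligand TRAIL of type 1 innate lymphoid cells, had a ratio of -1.11. Cd69 had -0.16 with values of 343, 321, 241 and 252 against 432, 440, 229 and 244, and Xcl1 had -0.19. The other lower genes named by size were Cd3g (-2.90), Matk (-2.26), Tnni1 (-2.24), Klk8 (-2.16), Sema6d (-1.99), 1810011H11Rik (-1.96), the E-cadherin gene Cdh1 (-1.79), Cd7 (-1.68), Inpp4b (-1.61) and Rgs18 (-1.37). Cd3g was at 0 to 20.1 in members and 163 to 212 in resident-type cells, although both classes were chosen without Cd3e and Cd3d UMIs.

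The NK-gated cells with neither gene set lay on the same side of resident-type cells as the members for the genes given here. Their log2 ratio to resident-type cells was 2.01 for Lgals1, 1.57 for Klf2, 1.20 for Eomes, 1.74 for Il18r1, -3.64 for Gzmb and -1.60 for Cd7. Gzma differed, at 0.79 against 2.30 in members, with 1099, 857, 997 and 601 CPM, below the members in every library. Cxcr6 had -1.52 against -2.84 in members, with values above the members in every library. Members and these cells together, the 518 NK-gated cells without a resident gene, are used below as a wider set.

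**Figure D2:**
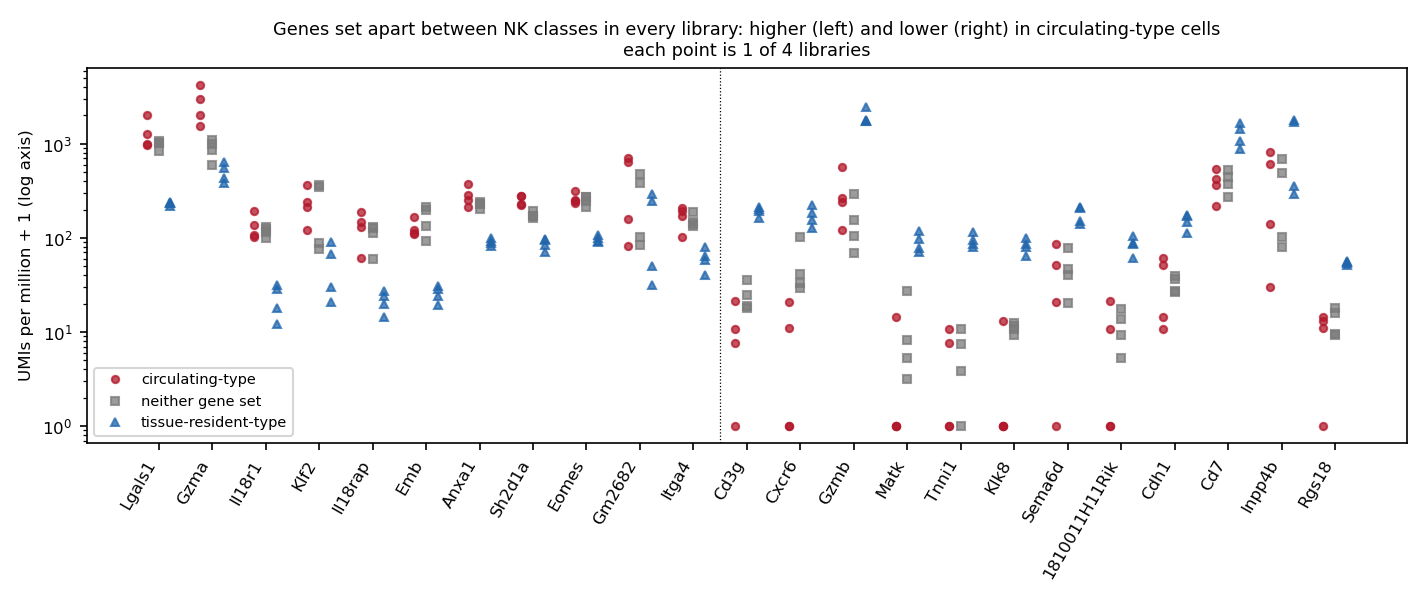
CPM plus 1 (log axis) of genes named by size, higher (left) or lower (right) in members than in tissue-resident-type NK cells, with 1 point per library for each class and for NK-gated cells with neither gene set. For most genes the points of the neither class lie with those of the members; for Gzma they lie between the other classes.

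Members made up a larger share of retained cells in the deligated libraries, but not of NK cells. The share was 0.288% (exact 95% binomial interval 0.153% to 0.491%) and 0.310% (0.203% to 0.454%) in the deligated libraries and 0.128% (0.0717% to 0.211%) and 0.141% (0.0821% to 0.226%) in the homeostatic ones. The groups did not overlap: the mean was 0.299% ± 0.0159 (SD, n = 2) against 0.134% ± 0.00908 (SD, n = 2). The log2 ratio was 1.15 with a standard error (SE) of 0.34 and an adjusted p of 0.00437 over 13 cell categories (edgeR quasi-likelihood test). Other categories differed too, such as macrophages (53, 185, 1522 and 1520 cells) and T cells (690, 1019, 221 and 207). With 2 libraries a group an exact permutation test cannot give a p below 0.333.

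Of NK-gated cells, the members were 1.76%, 1.53%, 1.64% and 1.85%, with overlapping groups (log2 ratio -0.12, SE 0.34, adjusted p 0.713 by edgeR). Of cells with a Ptprc UMI, the pan-leukocyte gene CD45, they were 0.726%, 0.687%, 0.580% and 0.712% (log2 ratio 0.12, adjusted p 0.802). The NK-gated cells as a whole were 737 and 1702 of 4521 and 8386 retained cells in the deligated libraries and 912 and 921 of 11713 and 12065 in the homeostatic ones. The wider set gave a log2 ratio of 0.48 over retained cells with an adjusted p of 0.0913. Retained cells were deeper in the deligated libraries. With all cells thinned to 1000 UMIs the gate held 6, 14, 6 and 4 cells (log2 ratio 1.51, adjusted p 0.0144). Without homeostatic library 1 the adjusted p was 0.232 and without homeostatic library 2 it was 0.181.

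**Figure D3:**
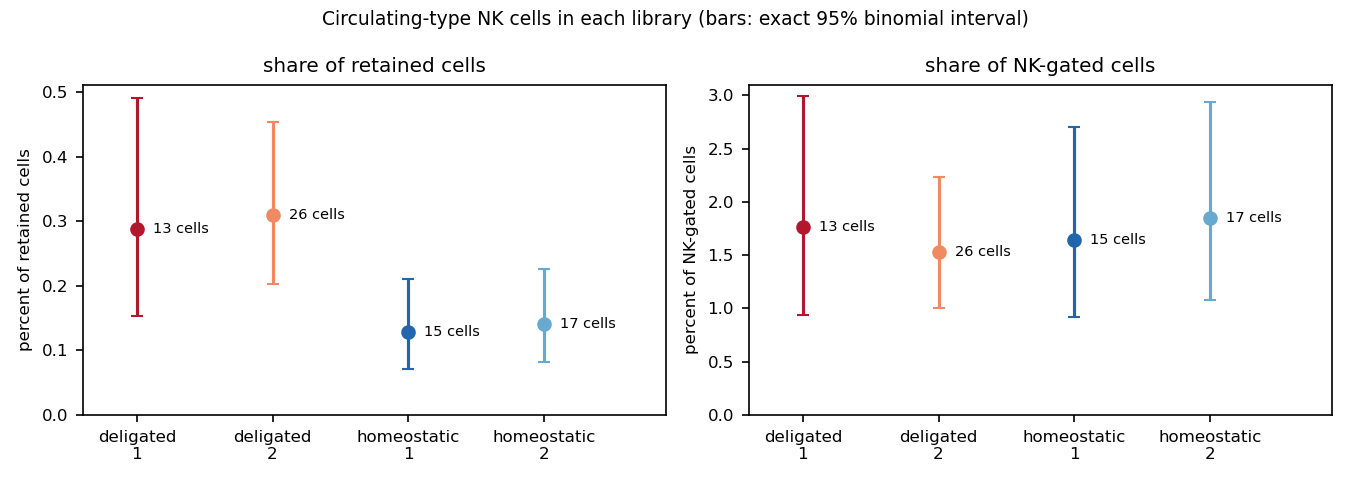
Members as a percent of retained cells (left) and of NK-gated cells (right), 1 point per library with exact 95% binomial intervals. Deligated libraries lie above homeostatic ones over retained cells (0.288 and 0.310 against 0.128 and 0.141 percent) and overlap with them over NK-gated cells.

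Between the groups, the members of the deligated libraries had more immediate early and Btg1 transcripts and less Nr4a2. Of 1661 genes with enough UMIs to test, 254 (15.3%) had an adjusted p of at most 0.05 in edgeR's quasi-likelihood test on UMIs summed per library: 46 higher (2.77%) and 208 lower (12.5%). Libraries of the groups did not overlap for 888 genes (53.5%). Without deligated library 2, which held the most members, 58 genes were called, and without homeostatic library 1 or 2 there were 163 and 138.

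The lower calls followed the length of introns. Where introns summed to more than 100 kb, 149 of 256 genes were called (58.2%) and none of those was higher, while of 292 genes with at most 2 kb, 29 were called and 26 of them were higher. The former made up 4.30%, 3.53%, 10.1% and 10.5% of the members' UMIs, and 4.32%, 4.38%, 9.52% and 9.81% of those of resident-type cells. This difference runs with surgery, age and Cell Ranger version alike, which cannot be told apart.

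When the trend of fold change on intron length was removed, 49 genes (2.95%) were called, 25 higher (1.51%) and 24 lower (1.44%). Called in the same direction by both fits were 7 higher and 23 lower genes. Across the 1661 genes, Spearman's rho of fold change with intron length was -0.60 before and 0.04 after. The second value follows from the removal itself, since the trend was fitted to these same fold changes. Genes of one fit share libraries and reads, so the correlation is a description. The trend-removed value is given below beside each call that it changes.

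**Figure D4:**
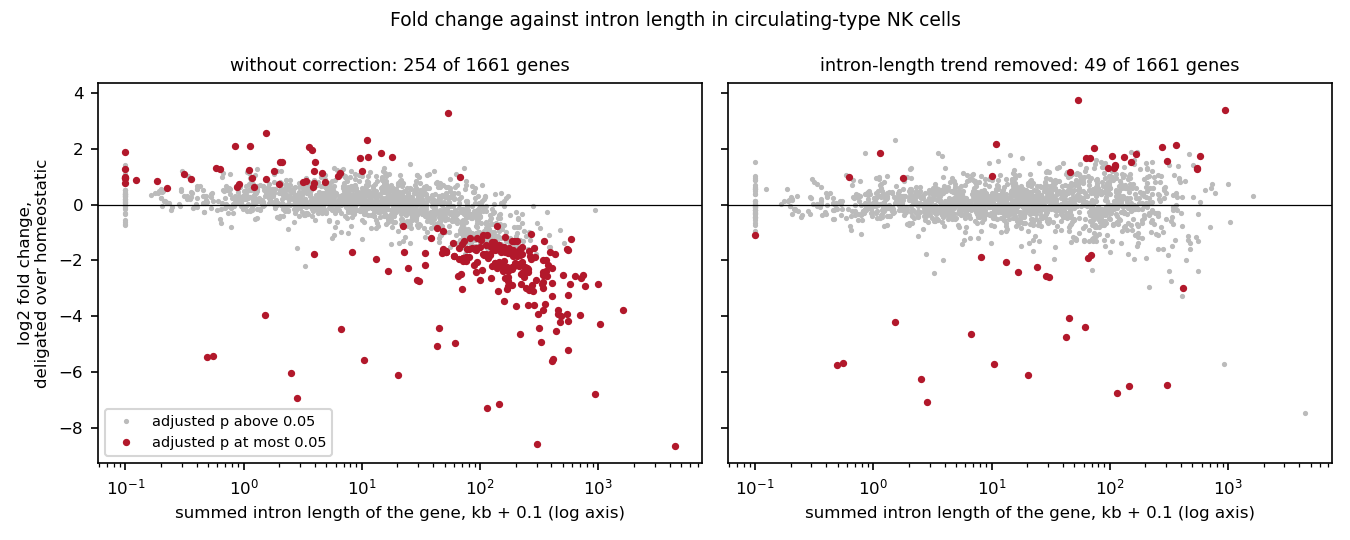
Log2 fold change of members, deligated over homeostatic, against summed intron length per gene (kb plus 0.1, log axis), 1 point per tested gene, red where the adjusted p was at most 0.05. Without correction 254 genes are red, mostly long and lower; with the trend removed 49 are red.

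Values from here on are CPM scaled by edgeR's TMM factors, fold changes are log2 of deligated over homeostatic with their SE, and adjusted p-values are edgeR's over all 1661 genes. The median fold change of all genes tested was 0.03.

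Immediate early genes, which are transcribed within minutes of a stimulus and also during tissue dissociation, were called higher more than lower. Of 33 listed genes 17 were tested, 7 rose, 1 fell and the median was 0.87. With the trend removed, 3 rose. DESeq2 called 3 of the list. Dusp1, a phosphatase that ends MAP kinase signals, stood at 260 and 433 in the deligated libraries and 46.2 and 26.3 in the homeostatic ones, a fold change of 3.27 (SE 0.64, adjusted p 0.00135), and 3.75 with the trend removed (adjusted p 0.00104). Its homeostatic values rest on 3 and 2 UMIs, and without deligated library 2 its adjusted p was 0.0837. Dusp5 (fold change 2.32, adjusted p 0.00591) and Dusp2 (1.09, adjusted p 0.0422), phosphatases of the same family, rose too, and Dusp5 did so with the trend removed (2.17, adjusted p 0.0295), while Dusp2 did not (adjusted p 0.248). Dusp2 also lost its call without deligated library 2 (0.432), homeostatic library 1 (0.084) or homeostatic library 2 (0.232).

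Fos, a subunit of the AP-1 factor, stood at 1210 and 685 against 277 and 158 (fold change 2.12, SE 0.37, adjusted p 0.00193, and 1.87 with an adjusted p of 0.0147 without the trend), and passed with any 1 library left out. With the gate on thinned cells it had -0.57 (adjusted p 0.727). Its partners Junb and Jun rose by 1.52 and 0.98 (adjusted p 0.00838 and 0.0283), and Klf6 by 1.15 (adjusted p 0.0382). The 3 did not pass with the trend removed. Jun had -0.56 with the gate on thinned cells and -0.56 with at least 2 UMIs of the circulating genes. Junb lost its call without deligated library 2 (0.203), and Klf6 without deligated library 2 (0.152), homeostatic library 1 (0.336) or homeostatic library 2 (0.0885). Nfkbiz, an NF-kappaB cofactor, had a fold change of -1.70 (adjusted p 0.0412), but 41.5% of its UMIs came from 1 cell of homeostatic library 2, which otherwise held 2. Its adjusted p was 0.116 with the trend removed and 0.0847 to 0.693 with any 1 library left out. Jun lost its call likewise with any 1 library left out (0.0733 to 0.214). Deligated values were above homeostatic ones in each library for every riser named here.

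Nr4a2, an orphan nuclear receptor that is also a quick-response gene, moved against that group. It stood at 65.1 and 121 in the deligated libraries and 338 and 420 in the homeostatic ones, and fell by 1.95 on the log2 scale (SE 0.40, adjusted p 0.00526). With the trend removed it fell by 2.06 on the log2 scale (adjusted p 0.0127), the only NK transcription factor called there. Without deligated library 2 its adjusted p was 0.0647.

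Btg1, an anti-proliferative gene of resting lymphocytes, stood at 2733 and 2920 against 1077 and 1261 (fold change 1.27, SE 0.21, adjusted p 0.00126; 1.01 and adjusted p 0.018 without the trend). Rpl27 rose by 1.22 (adjusted p 0.00233). S100a6 rose by 1.20 (adjusted p 0.00721), but 24.4% of its UMIs came from 1 cell, and in the wider set its fold change was 0.37 (adjusted p 0.111). Ahnak, a giant scaffold protein gene, rose by 1.00 (adjusted p 0.0329). With Dusp1, Dusp5 and Fos these are the 7 higher genes of both fits. Without deligated library 2 the adjusted p was 0.0593 for Btg1, 0.0799 for Rpl27, 0.0868 for S100a6, 0.062 for Ahnak and 0.155 for Dusp5. Ahnak also lost its call without each other library (0.11 to 0.209), S100a6 without homeostatic library 1 (0.137) and Rpl27 without homeostatic library 2 (0.056). With the gate on thinned cells S100a6 had -0.43 and Ahnak -0.11.

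Of the killing genes, 14 of 23 listed were tested, 1 rose, none fell and the median was 0.25. Gzma stood at 5584 and 3830 against 1985 and 2627, a fold change of 1.02 (SE 0.23, adjusted p 0.00824). The groups did not overlap, but 173 of the 442 UMIs of deligated library 2 came from 1 cell. Without it the unscaled CPM of that library fell from 2958 to 1936, below the 2013 of homeostatic library 2. In the wider set the fold change of Gzma was 0.78 (adjusted p 0.00665), and 0.53 there with the trend removed (adjusted p 0.0703). In the members with the trend removed it was 0.83 (adjusted p 0.0752). Without deligated library 2 the adjusted p was 0.0529, and without homeostatic library 1 it was 0.139. With the gate on thinned cells Gzma had -0.58. Gzmb stood at 351 and 737 against 154 and 315 (fold change 1.22, SE 0.41, adjusted p 0.0671). Prf1 had a fold change of 0.46 (adjusted p 0.423) and Nkg7, a granule protein gene, 0.42 (adjusted p 0.206).

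Secreted factors had 7 of 18 genes tested and 3 higher calls, all CC chemokine genes, with a median of 0.42. DESeq2 called none of them. Ccl4 stood at 729 and 5849 against 431 and 683 (fold change 2.57, SE 0.65, adjusted p 0.0183). With the gate on thinned cells it had -0.96. A single cell of deligated library 2, of ordinary depth at 5762 UMIs, held 470 of the Ccl4 UMIs, 58.0% of the total. The same cell, admitted by Klrg1, held 267 UMIs of Xcl1, 112 of Ccl5, 36 of Ccl3 and 32 of Gzma. Without it the library stood at 1427 CPM of Ccl4 before TMM scaling, against 4517 with it, and without the whole library the fold change was 0.47 (adjusted p 0.536). Ccl3 stood at 234 and 1109 against 108 and 210 (2.10, SE 0.60, adjusted p 0.0303), with 21.3% of its UMIs in 1 cell. Ccl5 stood at 5623 and 7625 against 4324 and 4256 (0.63, SE 0.20, adjusted p 0.0472). Without deligated library 2 the fold changes of Ccl3 and Ccl5 were 0.62 and 0.48 (adjusted p 0.552 and 0.352), and Ccl5 also lost its call without homeostatic library 1 (0.302) or 2 (0.396). In the wider set Ccl4 had 0.86 (adjusted p 0.0137) and Ccl3 0.38 (adjusted p 0.335). There Ccl4 had 0.66 with the trend removed (adjusted p 0.0735). In the members none of the 3 passed with the trend removed. Xcl1 (1093 and 4991 against 2200 and 2404) and Ifng (0.31, adjusted p 0.759) overlapped between groups or did not pass.

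Of 38 NK receptor genes listed, 18 were tested, none rose, 1 fell and the median was -0.20. DESeq2 called none of them. Klra4, an activating Ly49 receptor gene in a family of near-identical copies whose reads can be split, stood at 1223 and 1577 against 2231 and 2562 and fell by 0.77 on the log2 scale (SE 0.22, adjusted p 0.0296). Its adjusted p was 0.101 with the trend removed and 0.159 to 0.363 with any 1 library left out, and in the wider set it had -0.23 (adjusted p 0.25). Klra8 had a fold change of -0.27 (adjusted p 0.497). Ncr1, Klrb1c and Klre1, which chose the members, had -0.20, 0.17 and -0.11. Of 11 cytokine receptor and STAT genes tested edgeR and DESeq2 called none, with 2 at an unadjusted p under 0.05 in edgeR. The same held for the 12 class I presentation genes tested, also with 2.

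Egress and homing genes had 14 of 24 tested, none higher, 2 lower (the long gene Arhgap15 and the integrin gene Itgb1) and a median of 0.14. Itgb1 had -0.48 with the trend removed (adjusted p 0.339), an adjusted p of 0.108 to 0.396 with any 1 library left out, and -0.32 in the wider set (adjusted p 0.225). Klf2 stood at 482 and 277 against 308 and 158 (fold change 0.69, adjusted p 0.311), with overlapping groups. In the wider set it had 2.00 (adjusted p 1.46e-05). Of 13 residency genes tested, Rgs1 rose, at 651 and 849 against 323 and 302 (1.27, adjusted p 0.00906), and Inpp4b and Itgav were lower. Rgs1 had 0.88 with the trend removed (adjusted p 0.13), and its adjusted p was 0.14 without deligated library 2, 0.0601 without homeostatic library 1 and 0.11 without homeostatic library 2. Itgav had -1.30 with the trend removed (adjusted p 0.226).

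Of 13 NK transcription factor genes tested, 5 were called lower: Zeb2, Tox, Bach2 and Ikzf3, all genes with long introns, and Nr4a2. Zeb2 stood at 208 and 121 against 631 and 486 and had a fold change of -1.80 (adjusted p 0.0043), but -0.63 with the trend removed (adjusted p 0.439) and an adjusted p of 0.155 without deligated library 2. Tox went from -2.71 to -0.52 and Bach2 from -3.78 to -1.49 (adjusted p 0.398). Eomes, a shorter gene, had -0.23 (adjusted p 0.718), with overlapping groups. Ikzf3 went from -1.29 to -0.56 (adjusted p 0.56). In the wider set with the trend removed Ikzf3 and Bach2 were still called lower, at -1.33 and -0.88 (adjusted p 0.00069 and 0.0478). The signalling genes Fyn, Inpp5d and Plcg2 were called lower at -1.30, -1.61 and -2.09, and had 0.42, -0.67 and -0.79 with the trend removed (adjusted p 0.628, 0.533 and 0.607). Arhgap15 and Inpp4b likewise went from -2.57 and -2.91 to 0.53 and 0.42.

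The genes with the largest lower calls were either long or secretory. Cmss1 (chromosome 16, 57302000 to 57606864, minus strand, GRCm38) had 1 and 1 UMIs in the deligated libraries and 288 and 352 in the homeostatic ones, a rate 442 times lower with a counting interval of 122 to 3655. It lies across Filip1l on the other strand. Camk1d had 3 and 2 UMIs against 68 and 113. Removing the trend took Cmss1 from -8.57 to -6.46 and Camk1d from -5.52 to -2.99, and both stayed called (adjusted p 5.56e-07 and 0.00371). Airn (17 and 16 homeostatic UMIs), Tex14 (10 and 20) and Gm11290 (11 and 15) had no UMI in either deligated library, and were at least 15.2-fold, 13.8-fold and 12.0-fold lower against a floor of 3 UMIs over the group. All 3 were called with and without the trend. Gm11290 was seen in 4 members, and 10 of its 11 UMIs in homeostatic library 1 came from 1 cell. It lost its call without deligated library 2 (adjusted p 0.0644) or homeostatic library 1 (0.0555), and Tex14 without deligated library 2 (0.059).

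The salivary secretory genes Mucl2 (2 and 18 UMIs against 353 and 610), Scgb1b27 (1 and 3 against 60 and 80), Prol1 (1 and 1 against 34 and 47) and Scgb2b27 (1 and 1 against 39 and 33) are not NK genes. Before TMM scaling the epithelial list stood at 363, 13.4, 953 and 1409 CPM in members and at 109, 337, 5961 and 5282 in resident-type cells. The groups did not overlap in either class. Klk1b26, Klk1b11, Klk1b9 and Crisp3, salivary genes singled out after their values were seen, were among the calls of the interaction test described below (adjusted p 8.26e-09 for Klk1b26, with 22, 0, 4 and 13 UMIs in members). Their differences, members minus resident-type cells, were upward, at 3.88, 4.09, 4.17 and 3.22. Klk1b26 changed by 0.04 in members and by -3.37 in resident-type cells. The Klk1b genes are near-identical copies whose reads can be split. The part of free RNA in this was not tested.

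Among glucocorticoid-responsive genes Dusp1 was the 1 riser of 4 tested, among interferon-stimulated genes Ifi47 (1.72, adjusted p 0.0265) of 5, and among glycolysis and growth genes Pgk1 (1.87, adjusted p 0.0437) of 9. Ifi47 and Pgk1 without the trend had adjusted p-values of 0.0901 and 0.13, and in the wider set their fold changes were 0.26 and 0.07 (adjusted p 0.292 and 0.839). Pgk1 lost its call with any 1 library left out, and Ifi47 without deligated library 2 (0.323), homeostatic library 1 (0.0902) or homeostatic library 2 (0.0568). Of 3 cell cycle genes neither tool called any, with 2 at an unadjusted p under 0.05 in edgeR. Of 81 ribosomal protein genes tested, 11 rose and none fell, with a median of 0.15, and 1 rose with the trend removed.

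**Figure D5:**
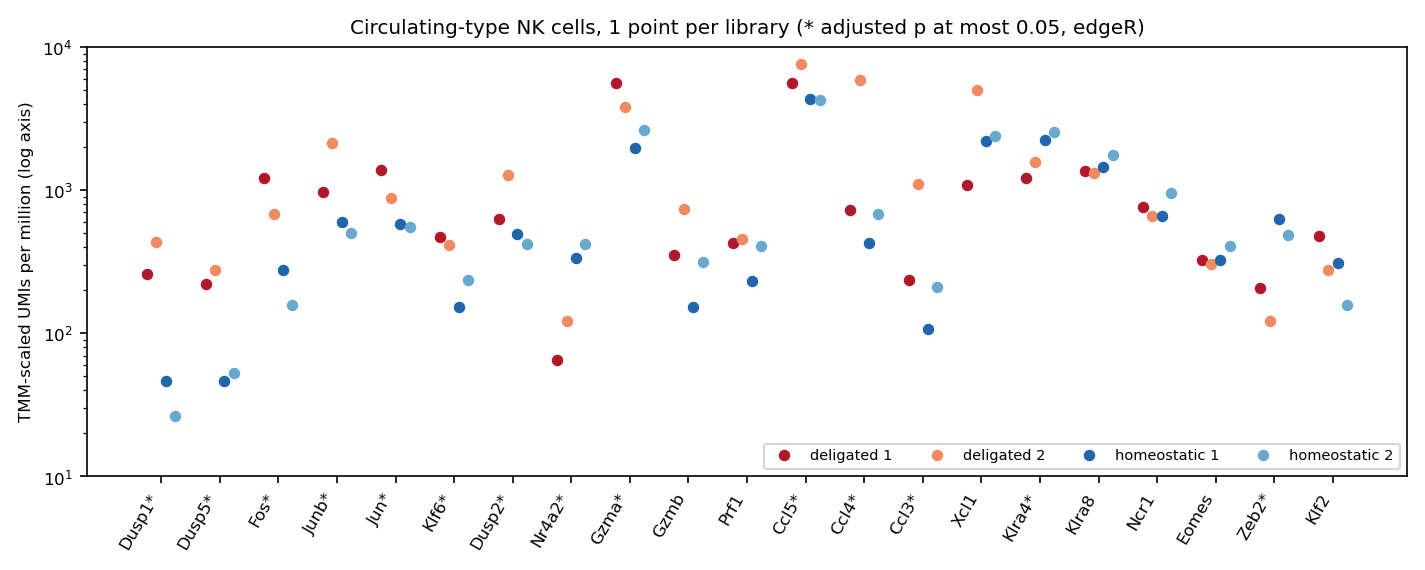
TMM-scaled CPM of named genes in the members, 1 point per library (log axis); a star marks an adjusted p of at most 0.05. Dusp1, Dusp5 and Fos are higher in both deligated libraries, Nr4a2 and Zeb2 lower, and Ncr1, Eomes and Klf2 overlap between groups.

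In the wider set of 518 cells (89, 131, 159 and 139), 1393 of 7231 genes were called (19.3%), 443 higher (6.13%) and 950 lower (13.1%), and 685 (9.47%) with the trend removed, 416 higher (5.75%) and 269 lower (3.72%). There 17 of 30 immediate early genes rose and none fell, with Dusp1 at 2.40 (adjusted p 6.75e-06), and 8 of 19 egress and homing genes rose, among them Klf2, Cxcr4, Ly6c2, Ccr2, Gpr183, Selplg and Itgax, and 1 fell (Arhgap15). Of 19 killing genes 4 rose (Serpinb6b, Serpinb9, Gzma and Prf1) and Rab27a and Tnfsf10 fell. With the trend removed there, 9 immediate early genes rose and 1 fell (Tnfaip3), 4 egress and homing genes rose, and 2 killing genes rose and 1 fell. Of 32 NK receptor genes 5 rose (Klrb1b, Klrc1, Klrc2, Cd27 and Slamf6) and none fell, and without the trend 3 rose and 1 fell. Of 83 ribosomal protein genes 32 rose and none fell, and without the trend 13 rose and 1 fell. This set contains the members.

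Whether the change between groups differed between members and resident-type cells was tested as an interaction with library as a fixed term. Of 10456 genes 28 were called (0.268%), 21 where the members' change was more upward (0.201%) and 7 where it was more downward (0.0669%). In 23 of the 28 at least 50% of the members' UMIs came from 1 cell. Immediate early genes and Gzma were not among them: Fos changed by 2.12 in members and 1.15 in resident-type cells (difference 1.12 in the joint fit, SE 0.36, adjusted p 0.372), Dusp1 by 3.27 and 2.11 (1.36, SE 0.65, adjusted p 1) and Gzma by 1.02 and 0.59 (0.60, SE 0.29, adjusted p 1). Ccl4 and Ccl3 differed, and are described with the other such genes in the closing section.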

How the data were processed

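The authors deposited a matrix of UMI counts per gene and cell for each of the 4 10x libraries, produced with Cell Ranger 6.0.1 (deligated) or 7.0.0 (homeostatic) per the file headers. The submitters' processing notes name Cell Ranger 6.0.1 and Seurat, and the build mm10, for all 4. Whether intron reads were counted is not given in the sources used here.

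Counts were read as deposited. Cells with at least 300 genes and at most 10% mitochondrial UMIs were kept, no doublets were removed in the main analysis, and the gate was applied to raw UMIs. UMIs were summed per library, genes were filtered with filterByExpr, and groups compared with edgeR 4.0.16 (TMM, quasi-likelihood, Benjamini-Hochberg, threshold 0.05). SEs were kept at or above counting error. Shares used cell counts with retained cells as offset. The script was tested on simulated data. Intron lengths and coordinates came from GENCODE M21 (GRCm38), matched for 99.9% of gene identifiers. Members and gene lists were chosen with earlier results of these data known. Genes named by size were the 10 in each direction with the largest fold change that were called with and without the intron-length trend and averaged at least 20 CPM, the 6 in each direction for the interaction, and the 12 in each direction against resident-type cells. Alternatives were DESeq2 1.42.0, other gates, filters and scalings, thinning to 1000 UMIs, a replicate block and leaving out each library. Same-numbered libraries did not deviate together (r = -0.11 over 1661 genes), so numbers were not treated as pairs. A few genes that met these rules are not reported here.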

Additional observations from a re-analysis of the deposited data

Results flagged for a closer look

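Of the 28 genes called in edgeR's interaction test, 14 are described here: the 6 largest differences in each direction, Ccl4 and Ccl3. In each, the change between deligated and homeostatic libraries differed between members and resident-type NK cells. Among the rest, Hbb-bs had the smallest adjusted p of all (3.53e-21), with 74.7% of its UMIs in 1 member. Hbb-bs and Lgals3 (adjusted p 0.00562) were singled out after their values were seen. Both lost their call without the 4 members rich in RNA of another type. Ccl4 differed with an adjusted p of 5.2e-08: members stood at 549, 4517, 338 and 523 CPM and resident-type cells at 523, 999, 674 and 747, a difference of log2 changes of 2.14 (SE 0.32). Ccl3 had an adjusted p of 2.66e-05 and a difference of 2.21 (SE 0.40), with 176, 857, 84.5 and 161 in members against 137, 207, 188 and 198. Both chemokine genes were singled out after their values were seen. The highest member value of each came from deligated library 2, where 1 cell held 470 of the 675 Ccl4 UMIs. Without that library neither was called (adjusted p 1 for both). Without the 4 members rich in RNA of another type both were still called (adjusted p 2.71e-12 and 1.64e-07), and in the wider set Ccl4 was (0.00729) and Ccl3 was not (0.543).

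Of the 12 genes named by size, 11 are mostly the RNA of single members. Fibroblast and stromal genes were high in deligated library 1, which held the member with 586 fibroblast UMIs: Cxcl14 had 242, 1, 0 and 0 UMIs, 241 of them in 1 cell (adjusted p 1.19e-05), Mgp 116, 1, 0 and 0 (1.57e-05), Apod 87, 2, 0 and 0 (2.66e-05), Dcn 99, 6, 0 and 0 (9.3e-05) and Col3a1 87, 0, 0 and 0 (0.00106). Antigen presentation and macrophage genes were high in homeostatic library 2, which held 2 members rich in dendritic and macrophage RNA: Cd74 had 2, 0, 0 and 283 UMIs, 194 of them in 1 cell (adjusted p 2.02e-08), H2-Eb1 1, 0, 0 and 103 (0.000156), H2-Ab1 0, 0, 0 and 59 (0.000458), H2-Aa 0, 1, 1 and 68 (0.00201) and C1qb 0, 0, 0 and 51 (0.0358). Lpl had 17, 0, 0 and 21 (0.00418). Without those 4 members none of these 11 was called.

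Tpm1, a tropomyosin gene, was spread more widely, with 13, 12, 0 and 0 UMIs over 16 members (adjusted p 0.00861). Its adjusted p was 0.121 without the 4 members and 0.934 in the wider set.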

How the results depend on the processing

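The higher share of members in deligated libraries depended on what it was a share of. The log2 ratio was 1.15 over retained cells, -0.12 over NK-gated cells and 0.12 over cells with a Ptprc UMI, 0.48 for the wider set, and 1.08 to 1.22 with 1 library left out. It was 0.86 over cells of at least 1000 UMIs and at most 5% mitochondrial UMIs, and 1.95 with at least 2 UMIs of the circulating genes. Replicate numbers as a block gave 1.14 (adjusted p 0.0162), 211 called genes in place of 254, and no interaction call in place of 28 (414 genes at an unadjusted p under 0.05, edgeR). The crossed pairing, added after the data were seen, gave 1.15 for the share (adjusted p 0.0524) and 300 genes.

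The 254 called genes became 49 with the intron-length trend removed, 54 in DESeq2, 115 with Itgam out of the gate, 22 with the gate on thinned cells, 9 with thinned sums, 3 with at least 2 UMIs of the circulating genes, 2282 without the limit on resident genes, 1393 in the wider set and 685 there without the trend. Leaving out 1 library, so that a lone library is assumed to vary like the other group's, gave 58 to 258 calls, with 58 without deligated library 2, 163 without homeostatic library 1 and 138 without homeostatic library 2. By list, DESeq2 called 10 ribosomal protein, 3 immediate early and 2 NK transcription factor genes. It called 1 gene each of the killing, egress and homing, residency and glucocorticoid-responsive lists. It called none of the secreted factor, NK receptor, signalling, interferon-stimulated and glycolysis and growth lists. Higher genes were 18.1% of calls, 51.0% without the trend, 36.3% without the low-count filter, 37.0% in DESeq2 and 31.8% in the wider set. The 28 interaction calls became 4 with the thinned gate, 0 with thinned sums (104 of 5571 genes at an unadjusted p under 0.05, edgeR), 15 without doublet-scored cells, 7 in the wider set, 7 without the 4 members rich in other RNA, and 13 to 31 with 1 library left out, 13 of them without homeostatic library 2.

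Some genes turned direction. With the trend removed Arhgap15 had 0.53, Inpp4b 0.42 and Fyn 0.42, and in the wider set without the trend 0.19, 0.10 and 0.30, with Pgk1 at -0.075. With the thinned gate of 30 cells Fos had -0.57, S100a6 -0.43, Gzma -0.58, Ccl4 -0.96, Jun -0.56 and Ahnak -0.11. Jun had -0.56 with at least 2 UMIs of the circulating genes, and Ccl3 -0.33 without the limit on resident genes. Interaction differences turned in the wider set for Hbb-bs (-0.61), Cd74 (0.48), H2-Eb1 (1.31) and H2-Aa (1.78), with the thinned gate for Ccl4 (-0.68) and Lgals3 (0.18), without the 4 members for Cd74 (1.09), H2-Eb1 (1.67) and H2-Aa (1.66), and for H2-Aa with 1 library left out (-5.70 to 0.90, the latter without homeostatic library 2). The cause of these turns was not tested. For 8 of the interaction genes a class was at 0 in a group, so the difference has no finite value and only the adjusted p is given. The members' 71 cells and 433666 UMIs left 1661 genes to test.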
